A study of Oryza sativa with 5 samples.

Results

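The wide regions of histone H3 lysine 4 trimethylation (H3K4me3) that carry no lysine 27 trimethylation (H3K27me3) number 844 of the 25715 H3K4me3 regions found in rice male meiocytes. The regions are the bases covered by peaks of both H3K4me3 libraries, with touching pieces joined. The 844 were chosen by their measured width, at least 1000 bp, and by sharing no base with a peak of either H3K27me3 library. They made up 3.28% of the regions and 8.40% of the H3K4me3 bases, 1.03 Mb in all. Width and freedom from H3K27me3 are therefore the rule and not results. The same peaks supplied the fold, the summits and the spacing, so every value below is a description of these lists and no test was made.

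The cells were Oryza sativa pollen mother cells, the cells that enter male meiosis, collected at early prophase I. Cross-linked chromatin of a low number of cells was cut with micrococcal nuclease, sheared by sonication and precipitated with an antibody to 1 of the marks. The study held 5 samples: 2 H3K4me3 libraries, 2 H3K27me3 libraries and an input, not used here. No genotype, cultivar or treatment is named in the labels, all 4 antibody libraries came from the same cell type and stage, and the labels call the libraries of a mark biological replicates without saying whether plants were pooled. Each library is represented by a peak list, so read depth is unknown. The lists held 29941 and 27411 H3K4me3 peaks and 19774 and 19450 H3K27me3 peaks in replicates 1 and 2. The labels and lists name no genome build. Positions are those of the lists, counted from 1, and the length of a chromosome is taken as the end of its last peak. For lack of a genome and annotation on a known build, no region was assigned to a gene, exon, intron or UTR and no sequence is shown.

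H3K4me3 is written by SET-domain methyltransferases of COMPASS-like complexes and lies on the nucleosomes just downstream of the start sites of transcribed genes, in plants as in animals. H3K27me3 is written by Polycomb repressive complex 2 and covers silenced genes, many of them developmental regulators. In early prophase I the chromosomes condense, homologues begin to pair and recombination starts. In mammals part of the H3K4me3 of this stage is placed at recombination sites by PRDM9, an enzyme that plants lack.

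The 844 regions were compared with the 24654 regions under 1000 bp, termed short regions here. Of the short regions, 18986 were free of H3K27me3, and 6797 of these measured at least 500 bp and are termed intermediate regions. A further 217 regions of at least 1000 bp touched H3K27me3. The wide regions free of H3K27me3 had a median width of 1148 bp, with quartiles at 1065 and 1299 bp, so most lay close to the threshold. The median was 408 bp in the short and 638 bp in the intermediate regions. Less than 50 bp above the threshold lay 167 of the members, and up to 50 bp below it lay 215 regions free of H3K27me3. The median gap to the nearest other H3K4me3 region was 4316 bp just inside and 3768 bp just outside the threshold, the median distance to H3K27me3 was 12003 and 12468 bp, and the median percentile of fold was 78.8 and 81.4 in replicate 1 and 63.0 and 72.0 in replicate 2. The 3 narrowest members, of exactly 1000 bp, began at position 23376637 and at position 33009151 of chromosome 1 and at position 2886859 of chromosome 3. Just below the threshold, the 3 widest regions free of H3K27me3, at 998 bp, began at position 33516746 of chromosome 2, position 9599301 of chromosome 3 and position 13384462 of chromosome 7.

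The width of these regions was limited mostly by replicate 2. Every region, wide or short, consisted of a single peak of each library. In 65.6% of the wide free regions the replicate 2 peak set both edges, and in 0.948% the replicate 1 peak did, against 63.9% and 3.11% of the short regions. Their peaks measured a median of 1342 bp in replicate 1 and 1184.5 bp in replicate 2, and the edges of both libraries lay a median of 75 bp apart on the left and 71 bp apart on the right. These edge differences were about as large in short regions, with medians of 73 bp on either side. Of the bases covered by either peak, the region itself made up a median of 87.7% in the wide free, 81.0% in the intermediate and 69.3% in the short regions. Where a peak held several regions, the other regions count here as not shared, so these shares understate the overlap of the peaks.

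Many more wide peaks existed in replicate 1 than in the regions of both libraries. Replicate 1 held 3817 peaks of at least 1000 bp (12.75% of its list) and replicate 2 held 1349 (4.92%). Of the replicate 1 wide peaks, 843 held a wide free region, whereas 1068 were divided by replicate 2 into 2254 short regions, 1613 held a single short region and 76 held none. Of the replicate 2 wide peaks, 844 lay in a wide free region, 35 were divided into short regions, 252 held a single short region and 1 held none. One replicate 1 peak of 3159 bp on chromosome 2 held a pair of members, at 885286 to 886321 and 886420 to 887528, which replicate 2 separated by 98 bp. That is why the replicate 1 number is smaller by 1.

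The widest member of each chromosome ranged from 1403 bp on chromosome 11 to 2445 bp on chromosome 1. The chromosome 1 region, at 30144264 to 30146708, had a fold of 6.76 in replicate 1 and 3.16 in replicate 2, which put it in the 89.7th and 73.25th percentile of the lists. Its summits lay 274 bp apart, both in its right part, and the next H3K4me3 region was 8041 bp away. Fold here is the enrichment over background that the authors' peak caller gave each peak, and since its scale differs between lists it is compared as a percentile within a list. The region on chromosome 12 at 2251601 to 2253849 measured 2249 bp, with a fold of 5.29 in replicate 1 and 2.92 in replicate 2, and both summits lay in its left part. On chromosome 4 the region at 24095903 to 24098116 (2214 bp) had a fold of 3.775 in replicate 1 and 2.42 in replicate 2, in the 34.1st and 22.2nd percentile of the lists, and its summits lay 889 bp apart. The widest members were therefore not alike in enrichment.

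Chromosome 3 had its widest member at 33831540 to 33833727 (2188 bp), where the fold was 3.67 in replicate 1 and 2.77 in replicate 2, in the 30.9th and 47.1st percentile. Chromosome 5 had it at 25804937 to 25807038 (2102 bp), in the 87.3rd and 85.7th percentile, only 603 bp from another H3K4me3 region. On chromosome 2 it lay at 5179751 to 5181756 (2006 bp), in the 91.4th and 88.8th percentile. On chromosome 10 it lay at 22857294 to 22859281 (1988 bp), at 1.43% of the chromosome's length from its end, in the 93.4th and 83.7th percentile. On chromosome 8 the widest member, at 21722318 to 21724281 (1964 bp), lay 629 bp from an H3K27me3 peak of 2432 bp. The widest members of chromosomes 6, 7 and 9 measured 1897, 1626 and 1983 bp, and the last was in the 64.0th percentile of fold in replicate 1 and in the 97.8th in replicate 2.

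Wide free regions were seldom among the weak peaks, and their enrichment was close to that of regions of intermediate width. Their median fold was 5.76 in replicate 1 and 3.08 in replicate 2, against 4.72 and 2.82 in short regions. Their median percentile was 76.6 and 69.0, against 57.05 and 50.6 in short and 76.5 and 67.1 in intermediate regions. The wide free regions thus stood above the short ones in both libraries and close to the intermediate ones. The median of the mean percentile of both libraries was higher in wide free than in intermediate regions on 9 of 12 chromosomes. Only 1.30% of them lay below the 25th percentile of fold in replicate 1 and 10.1% in replicate 2, against 17.3% and 24.8% of short and 3.15% and 12.6% of intermediate regions. At or above the 90th percentile lay 20.9% and 12.9%, against 23.1% and 17.8% of the intermediate regions.

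From one width class to the next, fold no longer rose steadily above 750 bp. By width class, the median percentile in replicate 1 among regions free of H3K27me3 rose from 45.7 under 250 bp to 79.1 between 750 and 1000 bp. In the 4 classes above 1000 bp it was 77.8, 74.65, 72.5 and 63.3 in order of width, the last from 10 regions of 2000 bp and over. In replicate 2 it rose from 39.3 to 69.3 and then stayed between 67.75 and 71.5. Among the 844 members the Spearman correlation of width with the mean percentile was 0.00709. It was 0.0854 over the 6797 intermediate regions and 0.347 over the 24654 short regions, so it was already low in regions of intermediate width. The groups differ in their range of width, and the short regions include some that touch H3K27me3. How much of the contrast with the short regions comes from this was not tested. All are correlations across regions of the same libraries, which are not independent replicates.

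**Figure D1:**
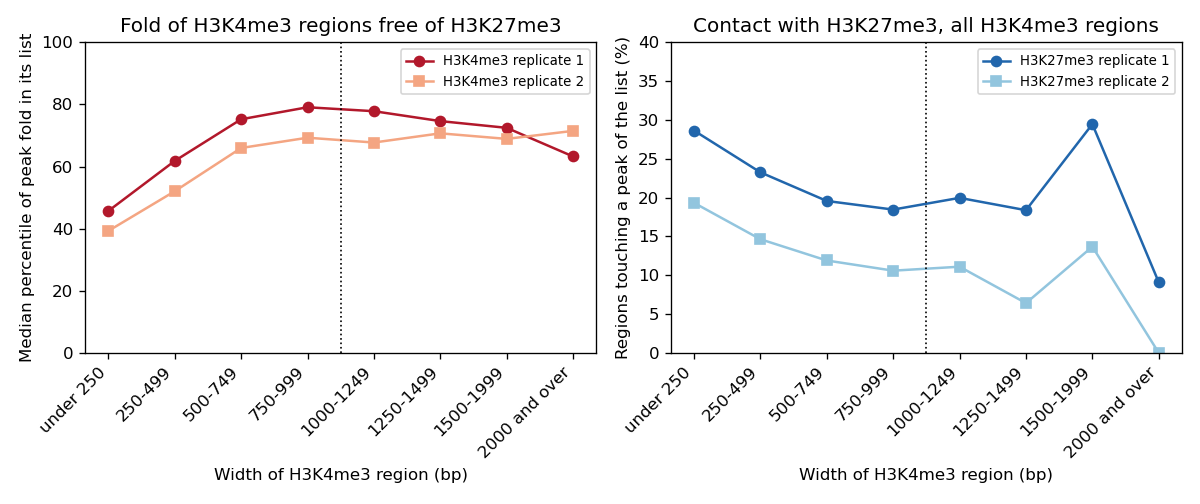
Left, the median percentile of fold (y axis, 0 to 100) of H3K4me3 regions free of H3K27me3 in each class of width (x axis, bp), for both H3K4me3 libraries. Right, the percentage of all H3K4me3 regions of a class that touch a peak of each H3K27me3 library. The dotted line marks 1000 bp. From 750 bp on the median percentile levels off in replicate 2, and in replicate 1 it declines from 79.1 to 63.3. The class of 2000 bp and over holds only 11 regions, 10 of them free of H3K27me3.

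The libraries ranked the members in part differently. Across the 844 members the Spearman correlation of fold between the H3K4me3 libraries was 0.430, against 0.474 across the short regions. The percentile in replicate 1 exceeded that in replicate 2 by a median of 6.885 points, and by 6.97 points in intermediate regions. The wide regions that touched H3K27me3 stood lower, with median percentiles of 45.9 and 51.5, and here the median difference was −4.90 points.

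Freedom from H3K27me3 rested almost wholly on the replicate 1 list of that mark. Of 1061 wide regions, 844 touched no H3K27me3 peak, 107 touched peaks of both libraries, 109 touched replicate 1 alone and 1 touched replicate 2 alone. With replicate 2 of H3K27me3 as the only list, 953 wide regions were free of it, and with replicate 1 as the only list, 845. Contact did not grow with width although a wider region offers more bases. It was 29.1% under 250 bp (95% Wilson interval 27.7 to 30.5%), 18.7% between 750 and 1000 bp (17.1 to 20.4%) and 20.0% in the next class (17.2 to 23.05%). Between 1500 and 2000 bp it was 30.5%, but with 95 regions the interval ran from 22.2 to 40.4%. These intervals cover counting error only, and neighbouring regions are not independent.

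Beyond their own edges the wide free regions lay about as near to H3K27me3 as other free regions. The median distance to the nearest H3K27me3 peak was 11170.5 bp, against 11830.5 bp for short and 12468 bp for intermediate regions free of the mark. Measured to the replicate 1 list alone it was 12045.5 bp against 13335 bp for short free regions, and to the replicate 2 list 15466 bp against 16438 bp. The medians of the members were the lower ones on 10 of 12 chromosomes, and the exceptions were chromosome 1 (13769 against 11462.5 bp) and chromosome 6 (15354 against 12637.5 bp). The direction held in both H3K27me3 lists, and the ratio of the medians was 0.944. It became 1.01 when regions of 800 bp and over counted as wide and 0.880 when only those of 1200 bp and over did, so the difference depended on the width chosen. Very close H3K27me3 was somewhat rarer than in short free regions: 2.37% of the wide free regions (20 of 844, 1.54 to 3.63%) had a peak within 1000 bp, against 4.32%. In intermediate regions the share was 3.25%, inside that interval. Within 5000 bp the shares were 23.5% of the wide free and 24.7% of the short free regions.

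The H3K27me3 that came nearest was mostly short. The nearest peak had a median length of 667 bp for wide free regions and 646 bp for short free regions, and it reached 2000 bp or more in 14.3% and 11.8%. In the 10 kb on either side of a wide free region H3K27me3 covered 4.54% of the bases on average, against 4.44% beside short free regions, and 45.3% of the wide free and 44.4% of the short free regions had a peak of it there. The 3 members nearest to the mark lay on chromosome 1 at 3959116 to 3961016, 104 bp from a peak of 872 bp, on chromosome 3 at 33360101 to 33361209, 118 bp from a peak of 334 bp, and on chromosome 8 at 10190341 to 10191450, 423 bp from a peak of 1899 bp. The first had another H3K4me3 region 201 bp away and a fold of 3.775 in replicate 1 and 2.98 in replicate 2, in the 34.1st and 62.8th percentile. The 3 farthest lay on chromosome 12 at 11715905 to 11717023, 394156 bp away, on chromosome 9 at 2706051 to 2707244, 203074 bp away, and on chromosome 1 at 17160357 to 17161462, 188423 bp away. The chromosome 12 region stood at percentiles 85.2 and 91.55 of fold in replicates 1 and 2, and the chromosome 9 region at 95.01 and 73.1.

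Wide free regions had close neighbours less often than short regions, and the difference was smaller against regions of intermediate width. The gap to the nearest other H3K4me3 region had a median of 4389 bp, against 3692.5 bp for short and 4230 bp for intermediate regions. The ratio of wide to short was 1.19, and the median of the wide regions was higher on 12 of 12 chromosomes. A gap under 1000 bp was found beside 14.8% of the wide free regions (12.6 to 17.4%), 26.85% of the short regions (26.3 to 27.4%) and 18.0% of the intermediate regions. The share was lower in wide than in short regions on every one of the 12 chromosomes. At larger distances the shares were close, with 95.4% of wide free and 94.8% of short regions having a neighbour within 20 kb, and a median of 2 other regions within 10 kb in both.

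Much of the close spacing came from peaks that replicate 1 joined and replicate 2 split. Of the 67 wide free regions with a gap under 300 bp, 58 shared the replicate 1 peak with that neighbour and 8 shared the replicate 2 peak. Among the 4157 short regions with such a gap, 3209 shared the replicate 1 peak. When pieces up to 150 bp apart were joined first, there were 1050 wide free regions and the ratio of the median gaps fell to 1.08. With only those H3K4me3 peaks whose −log10 q reached 5, the ratio was 1.015, so the longer median gap does not hold among the stronger peaks. The share with a gap under 1000 bp was still lower there, 10.2% against 17.95% of short regions. Intermediate regions, at 12.5%, were much closer to the wide free ones.

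**Figure D2:**
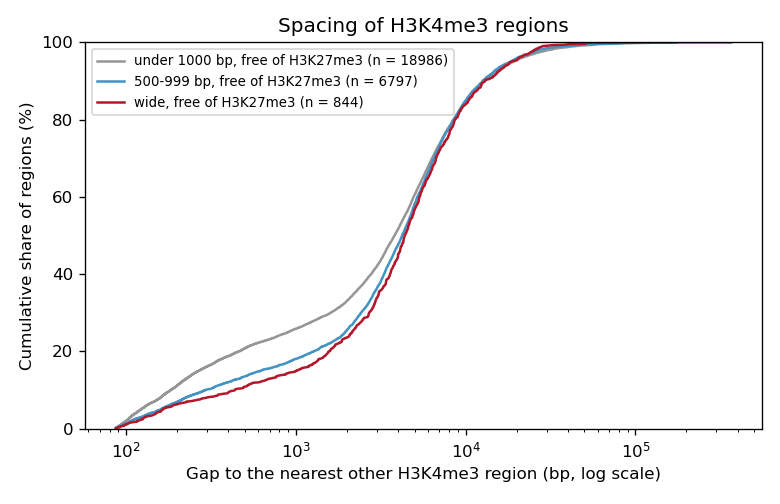
Cumulative percentage of regions (y axis) by the gap to the nearest other H3K4me3 region (x axis, bp, log scale) for wide, intermediate and short regions free of H3K27me3. At 1000 bp the curves stand at 14.8% for wide, 18.0% for intermediate and 25.8% for short free regions, and by 20 kb they have met.

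The most solitary member lay on chromosome 2 at 14681690 to 14683639, 172603 bp from its nearest H3K4me3 neighbour. It measured 1950 bp, with a fold of 6.78 in replicate 1 and 3.47 in replicate 2, in the 89.97th and 86.15th percentile, and summits 238 bp apart in its left part. The next were on chromosome 11 at 8826409 to 8827520, with a gap of 51199 bp and summits 12 bp apart, and on chromosome 7 at 13654696 to 13655746, with a gap of 50917 bp. Their percentiles of fold lay between 63.4 and 89.97 in both lists. The closest pairs, after the one inside a single replicate 1 peak on chromosome 2, were on chromosome 5 at 23786725 to 23788004 and 23788770 to 23789830, 765 bp apart, and on chromosome 9 at 19330083 to 19331817 and 19333084 to 19335066, 1266 bp apart. In the chromosome 5 pair the left region stood in the 92.7th and 95.2nd percentile and the right one in the 41.4th and 49.8th, and the summits of the left region lay in its right part and those of the right region in its left part.

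Wide free regions were next to one another more often than short regions were next to them. Of the direct neighbours of wide free regions 6.28% were wide and free themselves (5.22 to 7.54%), against 3.18% of the neighbours of short regions and 3.83% of those of intermediate regions. Adjacent members are counted from both sides, so this interval is too narrow even for counting error. The measure was added after the data were seen. The first share was higher than the second on 10 of 12 chromosomes, with the largest values on chromosome 4 (12.2%) and chromosome 5 (11.6%) and none on chromosomes 11 and 12, which held 26 and 25 members. It was also higher with each H3K4me3 list alone, at 12.6% against 8.87% in replicate 1 and 6.72% against 3.85% in replicate 2. Most members nevertheless stood alone: 742 had a region of another kind on both sides, 46 pairs followed each other, and 3 longer runs were found.

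The longest run held 4 members on chromosome 3, from 13153054 to 13169008. Their widths were 1079, 1320, 1003 and 1010 bp and their folds 7.54, 5.42, 5.82 and 11.8 in replicate 1 and 3.62, 3.31, 2.42 and 3.499 in replicate 2. The last of them, in the 99.9th percentile of replicate 1, was among the most enriched peaks of that list, and the third stood in the 21.4th percentile of replicate 2. The gaps between them were 1869, 4716 and 4958 bp. Chromosome 5 held both runs of 3, from 22974531 to 22985228 and from 23783799 to 23789830, the latter containing the pair 765 bp apart. Of all windows of 100 kb the richest were those that hold these runs of 3, with 5 members each among 18 and 14 H3K4me3 regions. Another 4 windows, on chromosomes 2, 3, 4 and 6, held 4 members, 585 windows held 1, and 3033 of 3735 held none. Stretches between consecutive members had a median of 187.2 kb, and 89 of 832 exceeded 1 Mb.

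The longest stretches without a member contained other H3K4me3 regions, but more sparsely than their whole chromosomes did. On chromosome 4 no member lay between 360372 and 7255788, 6.895 Mb or 19.4% of the chromosome. This stretch held 177 of its 2180 H3K4me3 regions, of which 37 were intermediate and free of H3K27me3. On chromosome 10 the stretch from 9079864 to 14658311 was 24.05% of the chromosome and held 236 of its 1416 regions. The shortest of these longest stretches were on chromosomes 1 and 2. They measured 2.06 Mb (4.76% of the chromosome, 98 of 3703 regions) and 2.09 Mb (5.80%, 74 of 2908 regions). Gaps of the assembly were not looked at.

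Chromosomes differed in their share of wide regions free of H3K27me3. Members made up 4.19% of the regions of chromosome 3 (141 of 3365, 3.56 to 4.92%), 3.97% on chromosome 5 (86 of 2167) and 3.62% on chromosome 1 (134 of 3703). The lowest shares were 2.01% on chromosome 12 (25 of 1246, 1.36 to 2.95%), 2.05% on chromosome 11 (26 of 1271) and 2.37% on chromosome 8 (42 of 1772). When all wide regions counted, touching or free, the same chromosomes were the lowest, but chromosomes 11 and 12 changed places. The shares were 2.52% on chromosome 11, 3.21% on chromosome 12 (40 of 1246) and 3.22% on chromosome 8. Per Mb, members ranged from 0.897 on chromosome 11 to 3.87 on chromosome 3, a wider relative range than that of short regions, from 42.7 to 87.7 per Mb on the same chromosomes. Within single lists, peaks of at least 1000 bp made up 13.8% on chromosome 3 and 11.4% on chromosome 11 in replicate 1, and 6.37% and 3.09% in replicate 2. Chromosome 5 had the highest share in replicate 1, at 14.1%, and chromosome 3 in replicate 2. Chromosome 8, at 12.6% in replicate 1, was not among the lowest there. The median width of members varied little between chromosomes, from 1118 bp on chromosome 7 to 1193.5 bp on chromosome 4.

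**Figure D3:**
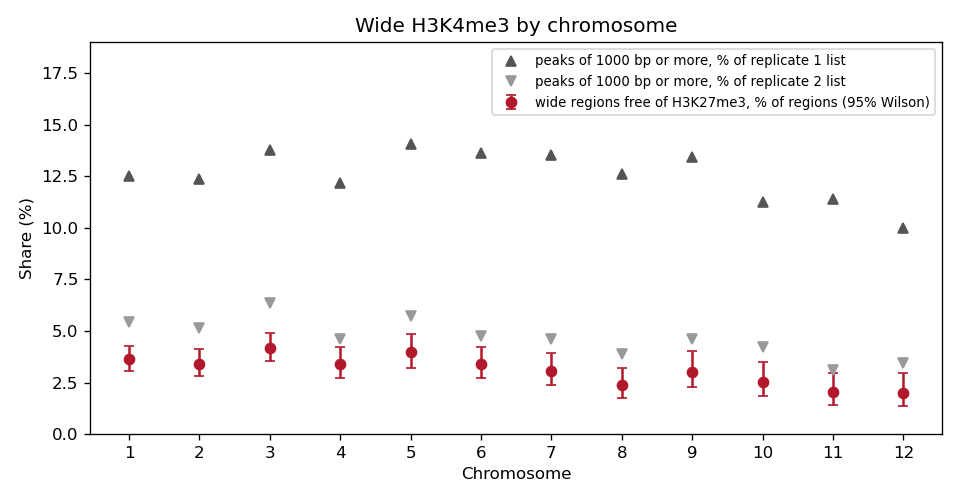
Wide regions free of H3K27me3 as a percentage of all H3K4me3 regions of a chromosome (circles, with 95% Wilson intervals for counting error), and peaks of at least 1000 bp as a percentage of each H3K4me3 list (triangles), by chromosome (x axis). The shares of members run from 2.01% on chromosome 12 to 4.19% on chromosome 3.

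Along the chromosomes, wide free regions were more frequent than short ones between 20 and 30% of the chromosome length from the nearer end. There lay 25.5% of them (22.65 to 28.5%), against 19.1% of short and 19.1% of intermediate regions. This class was not planned and was picked after the data were seen. The share was higher on 8 of 12 chromosomes, and with each H3K4me3 list alone, at 22.2% against 19.4% in replicate 1 and 24.7% against 18.9% in replicate 2. The chromosomes and single lists hold the same peaks, so they are not independent support. The largest differences were on chromosome 11 (38.5% against 19.2%, from 26 members) and chromosome 4 (31.1% against 18.6%). Wide free regions were less frequent at 10 to 20% (21.7% against 25.2%) and in the inner part from 30 to 50%, where 13.03% and 9.60% lay in the successive classes, against 15.9% and 12.3%. In replicate 1 alone the share at 10 to 20% was 25.9%, against 24.75% of short regions, so that part of the pattern did not hold there.

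In the outermost 10% of the length at either end lay 30.2% of the wide free and 27.5% of the short regions. The share was higher on 9 of 12 chromosomes, with chromosome 10 at 41.7% against 26.15% and chromosome 11 at 15.4% against 25.6%. It does not hold in replicate 1 alone, where it was 26.5% against 27.5%. Within 1 Mb of an end the wide free regions (8.89%) did not stand out from short ones (9.09%), unlike the wide regions that touched H3K27me3 (20.7%).

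**Figure D4:**
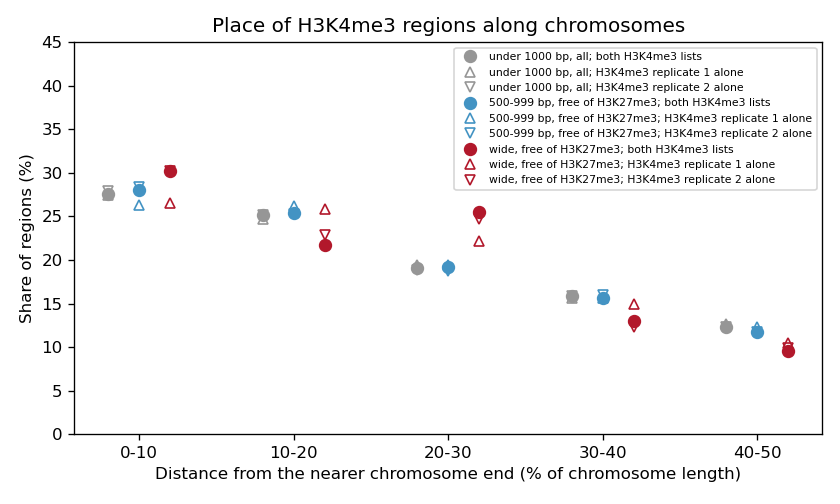
Percentage of regions (y axis) in 5 classes of distance from the nearer chromosome end, as a percentage of the chromosome length (x axis), for short, intermediate and wide free regions. Filled circles are regions of both H3K4me3 libraries, and open triangles those of each library alone. The wide regions stand above the others at 20 to 30%, a class picked after the data were seen, in all 3 sets, which share peaks.

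Summits, the points of highest pile-up in a peak, could number at most 1 per library in a region, because each region consisted of 1 peak of each library. In the wide free regions a summit lay inside in 98.5% for replicate 1 and 99.8% for replicate 2, against 85.9% and 98.0% of the short regions. Both lay inside in 829 of the 844. The mean number per region was 0.985 and 0.998, and per kb of region 0.810 and 0.820, against 1.94 and 2.21 in short regions. With that limit of the lists, greater width could not show as more summits.

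The summits of both libraries were farther apart in the wide free regions. The median distance was 199 bp in the 829 regions with both inside, against 78 bp in intermediate and 46 bp in short regions. As a share of the region's width the medians were 16.2%, 11.8% and 11.3%. The summits agreed within 50 bp in 24.7% of the wide free and 52.6% of the short regions. In 13.75% of the wide free regions (114 of 829) they lay over 500 bp apart and on opposite sides of the centre. Such a distance can occur only in a region wider than 500 bp, and in intermediate regions the share was 1.29%. With a median width of 638 bp, most intermediate regions had little room for it, so the width rule itself separates these shares. Regions with both summits on the same side of the centre made up 61.8% of the wide free and 64.4% of the short regions. Over all 844 wide free regions the sides were balanced: 50.95% of the replicate 1 summits and 49.3% of the replicate 2 summits lay to the left.

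Relative to the width, summits in the regions of both libraries were about as central as in short regions. On a scale from 0 at the centre to 1 at the edge, the median offset was 0.347 in both libraries for wide free regions, 0.388 and 0.3 for short regions, and 0.402 and 0.383 for intermediate regions. Summits outside a region were included, with values above 1. In replicate 1 a summit lay inside 85.85% of the short regions, against 98.5% of the wide free regions. The wide regions were below the short ones in replicate 1 and above them in replicate 2. With a single H3K4me3 list the wide median was the higher one, 0.318 against 0.241 for replicate 1 and 0.330 against 0.293 for replicate 2. Against intermediate regions it was lower in both libraries, so the direction depended on the comparison. In bases, the summit lay a median of 387 bp from the nearer edge in replicate 1 and 384 bp in replicate 2, and 800 and 811.5 bp from the farther one.

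The distance from the summit to the nearer edge had 2 modes in the wide free regions. In bins of 50 bp, 9.87% of the replicate 1 summits and 13.9% of the replicate 2 summits of wide free regions lay 150 to 200 bp from the edge, more than in the next bin of 200 to 250 bp (6.26% and 4.87%). A broad second group lay farther in, with 13.2% and 11.2% at 450 to 500 bp. In the intermediate regions the same bin of 150 to 200 bp was the highest, at 25.1% and 33.5%. A summit cannot lie farther from its nearer edge than the centre does, so most intermediate regions are too narrow to hold the upper part of the second group. Their shares were 8.71% and 7.89% at 300 to 350 bp and 0.322% and 0.266% at 450 to 500 bp. Whether intermediate regions with enough room show a second group was not tested. A summit less than 100 bp from an edge was rare in the wide free regions, at 2.77% and 1.19%. In intermediate regions, where these outer bases are a larger share of the width, it was also uncommon, at 9.83% and 5.24%. The sources used here do not give the fragment length and smoothing of the peak caller, and their part in this distance was not tested.

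**Figure D5:**
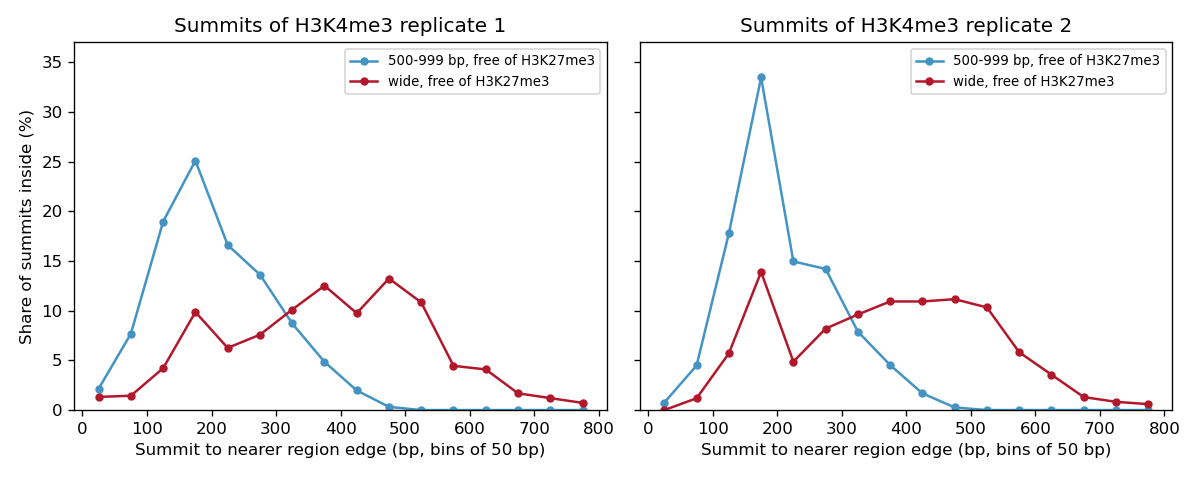
Percentage of summits inside the region (y axis) by the distance from the summit to the nearer edge (x axis, bins of 50 bp), for wide free and intermediate regions, in H3K4me3 replicate 1 (left) and replicate 2 (right). Both libraries show a narrow mode at 150 to 200 bp. The wide regions also show a broad group from about 300 to 550 bp, whose upper part most intermediate regions are too narrow to hold.

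When the inner 40% of the width was taken as the centre, both summits were central in 309 of the 829 wide free regions (37.3%). In 125 (15.1%) both lay toward the same edge, in 59 (7.12%) toward opposite edges, and in 336 (40.5%) one was central and the other was not. In intermediate regions these shares were 33.7%, 20.5%, 8.19% and 37.7%. Among the members the 211 widest, from 1299 bp, had a median of 267 bp between the summits, against 171 bp in the 211 narrowest. Their median gap was 4871 bp against 4347 bp, and their median percentile of fold 74.65 against 78.9 in replicate 1 and 70.9 against 64.05 in replicate 2. The order by fold thus went in opposite directions in the libraries.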

How the data were processed

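H3K4me3 and H3K27me3 were profiled by ChIP-seq in 2 libraries each. The authors deposited narrow peak lists for H3K4me3 and broad peak lists for H3K27me3. MACS2, Bowtie2, fastp, SAMtools, Picard and deepTools are listed, without versions, per the submitters' processing notes. The sources used here give no genome build, control or thresholds. The smallest deposited −log10 q was 2.007 in both lists of H3K4me3, and for H3K27me3 it was 1.024 in replicate 1 and 1.008 in replicate 2. In the deposited lists each peak carries a fold enrichment (a ratio over background), −log10 p and q, a score derived from q, and in narrow lists a summit. Peak names in the deposited lists carry the tags merge, uniq and subsample for H3K4me3 replicate 1, H3K4me3 replicate 2 and H3K27me3 replicate 1, so the libraries may have been handled differently.

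Regions, gaps and summits were computed with Python 3.11.15, numpy 2.4.6 and scipy 1.17.1, and the code was tested on simulated data. A contact is a shared base. Regions named are the widest of each chromosome, those at the extremes of spacing and of distance to H3K27me3, those with most summits (all tied, so the widest), the closest pairs, the richest windows, and those beside the threshold; the runs were added after their values were seen. The regions and groups were chosen with earlier results of these data known. Only 2 libraries per mark exist and regions are not replicates, so no p-value is given. A gene table at hand was not used, since its build is not known to be that of the lists.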

Additional observations from a re-analysis of the deposited data

How the results depend on the processing

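Leaving out each library in turn gave 845 to 2761 wide free regions against 844, the most without H3K4me3 replicate 2, and a threshold of 800 bp gave 2085 and of 1200 bp 335. The ratio of median gaps, 1.19, ranged from 1.09 to 1.295 without 1 library and was 1.015 at a −log10 q of at least 5 in H3K4me3, 1.31 from 1200 bp, 1.08 with pieces joined and 1.06 against all 8435 short regions from 500 bp, which include those touching H3K27me3. The difference in the outer 10% at either end, 2.68 points, ranged from −1.01 to 3.22 without 1 library, reversed without H3K4me3 replicate 2, and was 0.407 from 1200 bp and 3.498 at a −log10 q of at least 5 in H3K27me3. The difference in summits per region, 0.0718, was 0.164 with pieces joined and 0.0165 against the 8435 regions, and with a single H3K4me3 list it is fixed by construction and was not run. The difference in summit offset, −0.00294, ranged from −0.00302 to 0.0772 without 1 library, was −0.0294 against the 8435 regions, and reversed without H3K4me3 replicate 1 (0.0370), without H3K4me3 replicate 2 (0.0772) and without H3K27me3 replicate 1 (0.00258). It also reversed at a −log10 q of at least 5 in H3K4me3 (0.0255) or H3K27me3 (0.00172), from 800 bp (0.00338), from 1200 bp (0.0182), with pieces joined (0.0236) and against short free regions (0.00906). The ratio of distances to H3K27me3, 0.944, ranged from 0.904 to 0.962 without 1 library. It reversed from 800 bp (1.01) and against all short regions (1.51), which include those touching the mark, and was 0.880 from 1200 bp, 0.896 against intermediate regions and 0.908 for regions free within 1000 bp. The difference in fold percentile, 19.1, ranged from 16.6 to 22.35 without 1 library and was 11.3 and 16.1 at the stricter q in H3K4me3 and H3K27me3, 12.45 against short free regions and 7.07 against the 8435 regions. The following differences, in place and in neighbours, and the alternatives on them were chosen after seeing the data. The difference at 20 to 30% of the chromosome, 6.39 points, ranged from 2.79 to 6.36 without 1 library and was 4.725 at the stricter q in H3K27me3 and 2.75 from 800 bp. The difference in wide free neighbours, 3.10 points, ranged from 2.86 to 3.74 without 1 library and was 2.70 at the stricter q in H3K4me3, 3.88 from 800 bp, 1.40 from 1200 bp and 2.64 against the 8435 regions. Apart from all-short distances, changed by that group's makeup, and joined summits, the cause of these changes was not tested.

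No paired analysis was possible because no result comes from a test and the libraries of the marks share only a number. Read depth is unknown, so weak H3K27me3 below the peak threshold in a region counted as free was not detectable.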
